A study of Mus musculus with 14 samples.

Results

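The genes described here encode the enzymes of mitochondrial oxidative phosphorylation. They were taken by symbol, as every gene whose name begins with Nduf, Uqcr, Cox4 to Cox8 or Atp5, plus Sdha, Sdhb, Sdhc and Sdhd. This gave 84 of the 10106 genes in the table: 44 of complex I (Nduf), 4 of complex II (Sdh), 8 of complex III (Uqcr), 11 of complex IV (Cox) and 17 of complex V (Atp5). The rule used names only and no measured value. It also took in 10 genes that are not canonical subunits: 7 complex I assembly factors (Ndufaf), the supercomplex factor Cox7a2l, Atp5sl, which the annotation calls Dmac2, and the processed pseudogene Atp5l-ps1. The other 74 are subunits, and Ndufa4, counted here with complex I for its prefix, is now assigned to complex IV. All 84 passed the filter of a mean of at least 1 RPKM (a read level per gene length and library size) that the tests required.

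Polyadenylated RNA was sequenced from OT-I cells, CD8+ T cells with a transgenic receptor for the ovalbumin peptide SIINFEKL. CFSE-labelled OT-I cells, marked by CD45.1, were transferred on day 0 into C57BL/6 mice 8 to 12 weeks old, and the recipients were injected by vein on day 1 and their spleens taken on day 4. The groups received saline (Naive, 3 libraries), whole ovalbumin (OVA, 3 libraries) or ovalbumin carrying ERY1, a peptide that attaches it to erythrocytes (ERY1-OVA, 3 libraries). Others received the SIINFEKL peptide alone (SIINFEKL, 2 libraries) or that peptide joined to an erythrocyte-binding TER119 antibody fragment (TER119-SIINFEKL, 3 libraries). The dose was 223 pmol in every antigen group, the equivalent of 10 µg of ovalbumin. Donor cells were sorted as CD3e+ CD8+ CD45.1+, so each library pools divided and undivided donor cells of the spleen. The labels do not say that libraries of a group came from separate mice, so p-values measure only the spread between these libraries.

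Oxidative phosphorylation passes electrons from NADH and succinate to oxygen and uses the energy to make ATP. Complex I oxidises NADH and complex II oxidises succinate, both handing electrons to ubiquinone. Complex III passes them to cytochrome c, and complex IV passes them to oxygen. Protons pumped by complexes I, III and IV return through complex V, the ATP synthase. Most subunits are encoded in the nucleus and imported, and a few are encoded by mitochondrial DNA. T cells are known to enlarge their mitochondrial machinery when they are activated.

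Promoter sequence is shown for the genes with the largest rises, with that of a gene that fell for comparison. The windows hold the 250 bases before the RefSeq transcription start (GRCm38.p6), read 5′ to 3′ on the gene's strand. They are shown for the gene of each complex with the largest called rise after OVA among those with an entry, and for Cox7a2l, chosen after its values were seen because it fell. The windows are Ndufb8 at chr19:44555443-44555692 on the - strand (complex I), Sdhd at chr9:50603850-50604099 on the - strand (II), Uqcr10 at chr11:4704345-4704594 on the - strand (III), Cox5b at chr1:36691237-36691486 on the + strand (IV), Atp5k at chr5:108434400-108434649 on the - strand (V) and Cox7a2l at chr17:83514334-83514583 on the - strand. The Cox7a2l window lies inside the gene as GENCODE places it (chr17:83501918-83517330), so its RefSeq start is downstream of the GENCODE start. Capitals mark a match to the motif of the transcription factor NRF1, a known regulator of respiratory genes.
Ndufb8: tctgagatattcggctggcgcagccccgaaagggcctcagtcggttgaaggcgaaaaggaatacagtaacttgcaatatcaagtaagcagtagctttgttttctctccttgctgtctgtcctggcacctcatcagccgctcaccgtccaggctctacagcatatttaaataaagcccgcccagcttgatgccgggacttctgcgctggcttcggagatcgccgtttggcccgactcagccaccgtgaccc
Sdhd: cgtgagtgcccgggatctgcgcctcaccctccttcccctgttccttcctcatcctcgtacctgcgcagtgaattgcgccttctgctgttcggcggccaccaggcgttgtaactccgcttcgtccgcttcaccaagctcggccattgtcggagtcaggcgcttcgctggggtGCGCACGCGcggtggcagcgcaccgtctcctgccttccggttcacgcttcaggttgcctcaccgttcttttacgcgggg
Uqcr10: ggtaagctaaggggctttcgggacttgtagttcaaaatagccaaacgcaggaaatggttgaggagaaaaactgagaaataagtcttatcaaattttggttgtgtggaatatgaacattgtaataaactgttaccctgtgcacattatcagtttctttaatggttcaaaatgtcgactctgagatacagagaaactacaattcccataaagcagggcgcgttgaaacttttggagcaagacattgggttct
Cox5b: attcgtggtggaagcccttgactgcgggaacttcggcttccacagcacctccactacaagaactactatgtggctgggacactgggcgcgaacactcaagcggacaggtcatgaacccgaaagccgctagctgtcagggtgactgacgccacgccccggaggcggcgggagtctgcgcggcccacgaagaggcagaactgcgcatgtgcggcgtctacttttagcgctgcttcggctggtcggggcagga
Atp5k: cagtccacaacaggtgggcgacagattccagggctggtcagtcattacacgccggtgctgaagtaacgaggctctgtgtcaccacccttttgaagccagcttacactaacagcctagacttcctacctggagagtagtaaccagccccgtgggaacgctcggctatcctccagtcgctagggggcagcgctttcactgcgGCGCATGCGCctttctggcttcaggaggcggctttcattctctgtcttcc
Cox7a2l: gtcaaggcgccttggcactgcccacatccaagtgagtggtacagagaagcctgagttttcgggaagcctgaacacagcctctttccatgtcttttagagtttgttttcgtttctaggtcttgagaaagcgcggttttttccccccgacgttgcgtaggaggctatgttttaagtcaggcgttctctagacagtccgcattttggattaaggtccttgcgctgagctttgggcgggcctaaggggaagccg

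Of the 84 genes, 69 had RefSeq promoter entries, with 74 windows in all. The NRF1 motif, searched as GCGCANGCG on both strands, was in 16 of the 74 windows (21.6%), against 5.16% of the 32851 windows of all genes. In the windows printed, it began 79 bases before the start in Sdhd. In Atp5k it matched on both strands, at 50 and 49 bases before the start, and these matches overlap. The motif CCGGAAGT of ETS factors and GABP was in 3 windows (4.05%, against 2.88% of all), and the YY1 motif AAGATGGCG was in 1 (1.35%, against 0.606%). These are counts of letters in the windows and show no binding.

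The libraries held abundant T cell transcripts: Cd8a lay at 246.9 to 398.5 RPKM and Cd4 at 0.182 to 1.31 RPKM. Markers of antigen presenting cells (Cd74, H2-Aa, H2-Ab1, H2-Eb1 and Itgax), none of them at 0, summed to 71.5 RPKM in OVA replicate 1, 36.6 in TER119-SIINFEKL replicate 1 and 7.74 to 28.9 elsewhere. Other marker sums ranged from 1.53 to 20.3 RPKM for red cell globins (highest in TER119-SIINFEKL replicate 1), 2.51 to 14.7 for the NK cell gene Klrb1c (highest in the same library), 8.09 to 17.6 for the B cell gene Cd79b and 3.50 to 15.6 for macrophage genes. Some of the 15 tested markers were called by limma in the comparisons with Naive. Cd8a and Cd8b1, the chains of CD8, were lower after OVA (log2 -0.46 and -0.47), ERY1-OVA (-0.33 and -0.56) and TER119-SIINFEKL (-0.45 and -0.94), and Cd3e after OVA (-0.39). The Cd8a call after ERY1-OVA was lost without ERY1-OVA replicate 3 or Naive replicate 1 or 3. The macrophage gene Cd68 was higher in the same 3 groups (0.88, 1.24 and 1.26), at 1.82 to 3.24 RPKM in Naive and up to 10.3 RPKM elsewhere. Its call after OVA (adjusted p = 0.0499) was lost with either pseudocount and the length and GC correction, and without any one of the OVA or TER119-SIINFEKL libraries, ERY1-OVA replicate 2 or Naive replicate 2 or 3. The call after ERY1-OVA was lost without its replicate 3 or Naive replicate 2. Lyz2, the other macrophage gene tested, was not called after OVA (0.66), ERY1-OVA (-1.93) or TER119-SIINFEKL (-1.27). After OVA, Itgax was higher (0.84) and Klrb1c lower (-0.92), and after ERY1-OVA H2-Aa was lower (-1.94). The Itgax call was lost without any one of the OVA, ERY1-OVA or TER119-SIINFEKL libraries or Naive replicate 2, that of Klrb1c without any one of the Naive libraries or OVA replicate 2 or 3, and that of H2-Aa without ERY1-OVA replicate 2 or Naive replicate 1 or 3. No marker was called after SIINFEKL. Their part in the results below was not tested. In bulk RNA, fewer cells of a type and less RNA per cell cannot be told apart. Depth is unknown because the values carry no read counts.

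The levels of the 84 genes were high. Their median mean level was 100.03 RPKM, against 13.7 over all genes tested, with medians of 59.0 for complex I, 94.6 for complex II, 114.9 for complex III, 216.2 for complex IV and 197.6 for complex V. The highest were the ATP synthase subunits Atp5b (mean 548.1 RPKM) and Atp5a1 (502.5) and the complex III hinge subunit Uqcrh (482.3). The lowest were the assembly factors Ndufaf6 (4.62), Ndufaf4 (5.76) and Ndufaf7 (8.62). RPKM is per length, but the annotation behind the lengths is not given and length dependence differed between libraries (below). These levels can therefore be set against each other only roughly.

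After OVA, transcripts of every complex rose. Of the 84 genes, 63 were called higher than Naive and 1 lower, with a median log2 difference of 0.66 (1.58-fold) against -0.04 over all genes. Of all genes tested, 24.4% were called higher and 23.1% lower (limma, adjusted p under 0.05). After ERY1-OVA, 38 were higher and 1 lower (median 0.47; all genes 20.9% and 19%). After TER119-SIINFEKL, 48 were higher and 1 lower (median 0.50; all genes 24.6% and 23%). After free SIINFEKL, none was called higher and 3 were lower (median -0.00; all genes 7.58% and 8.34%), and 8 of the 84 had an unadjusted p under 0.05 by the same limma fit. The 3 became 0 without Naive replicate 1, Naive replicate 3 or SIINFEKL replicate 1. These comparisons share the 3 Naive libraries, so their values are not independent of each other. The spread within the SIINFEKL pair was also wider, at an SD of 0.416 in log2 over all genes against 0.226 to 0.255 in the groups of 3.

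**Figure D1:**
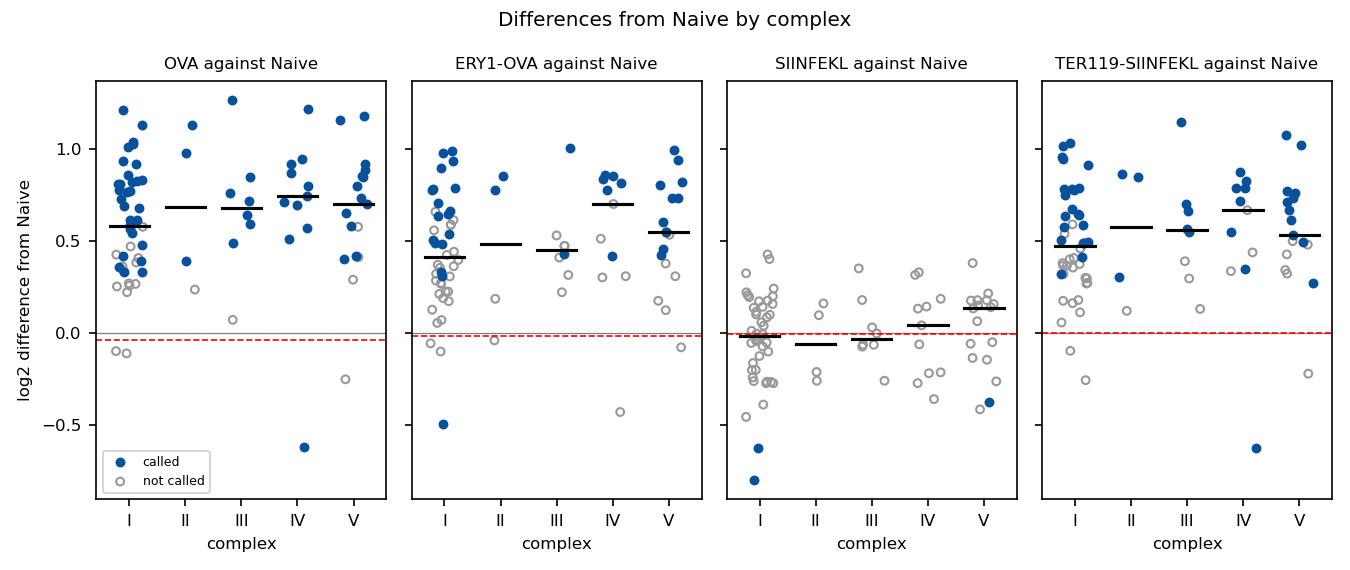
Log2 difference from Naive (vertical axis) of each of the 84 genes, by complex (horizontal axis), in 1 panel for each antigen group. Filled points were called by limma, open points were not, black bars are medians of the complex and the red dashed line is the median of all genes tested. Most points lie above 0 after OVA, ERY1-OVA and TER119-SIINFEKL and around 0 after SIINFEKL, with Cox7a2l the lowest point of complex IV after OVA.

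In the comparisons with Naive, 36 genes were called higher in all of OVA, ERY1-OVA and TER119-SIINFEKL, and 63 in at least 1 of them. Another 19 were called in none of the 4: Atp5e, Atp5h, Atp5l, Atp5sl, Ndufa1, Ndufa2, Ndufa3, Ndufa5, Ndufa6, Ndufa7, Ndufaf1, Ndufb2, Ndufb4, Ndufb11, Ndufs4, Ndufs7, Ndufv3, Sdha and Uqcrh. Only Cox7a2l, Ndufaf4, Ndufab1 and Atp5b were called lower in any of these 4 comparisons. Among the 74 subunits alone, 57, 34 and 44 were higher after OVA, ERY1-OVA and TER119-SIINFEKL, none was lower in these groups, and 2 were lower after SIINFEKL.

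By library, the median of the 84 genes relative to the Naive mean was 0.99, 0.48 and 0.50 after OVA, 0.26, 0.64 and 0.49 after ERY1-OVA, and 0.79, 0.30 and 0.48 after TER119-SIINFEKL. It was 0.14 and -0.10 after SIINFEKL and 0.15, -0.18 and 0.05 in Naive. All 9 libraries of the first 3 groups lay above all 5 others, and OVA replicate 1 and TER119-SIINFEKL replicate 1 stood highest. The same libraries differed across all genes in how expression depended on gene length. The rank correlation of a gene's deviation from its group mean with its exon length was -0.47 in OVA replicate 1 and -0.46 in TER119-SIINFEKL replicate 1. Elsewhere it ran from -0.33 (ERY1-OVA replicate 2) to 0.495 (TER119-SIINFEKL replicate 2). The 84 genes are short, with a median exon length of 1772.5 bases against 4434 over all genes with annotation.

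With expression corrected in each library for gene length and GC content, the medians became 0.69, 0.37 and 0.39 after OVA, 0.27, 0.44 and 0.42 after ERY1-OVA, 0.44, 0.30 and 0.38 after TER119-SIINFEKL and 0.15 and -0.00 after SIINFEKL. The 9 libraries still lay above the other 5, and the spread within OVA and TER119-SIINFEKL was narrower. The counts called higher were then 62, 46 and 47, and 7 after SIINFEKL. In the main fit 7.58% of all genes were called higher after SIINFEKL. The shares of all genes under the correction, or without single libraries, are not given here, so these counts have no background beside them. Single libraries also moved the counts. Without Naive replicate 2, 22 genes were called higher after ERY1-OVA and 30 after TER119-SIINFEKL. Without ERY1-OVA replicate 2 or replicate 3, 25 were called after ERY1-OVA, and without TER119-SIINFEKL replicate 1, 28 after TER119-SIINFEKL. After OVA the count fell lowest, to 42, without OVA replicate 1.

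**Figure D2:**
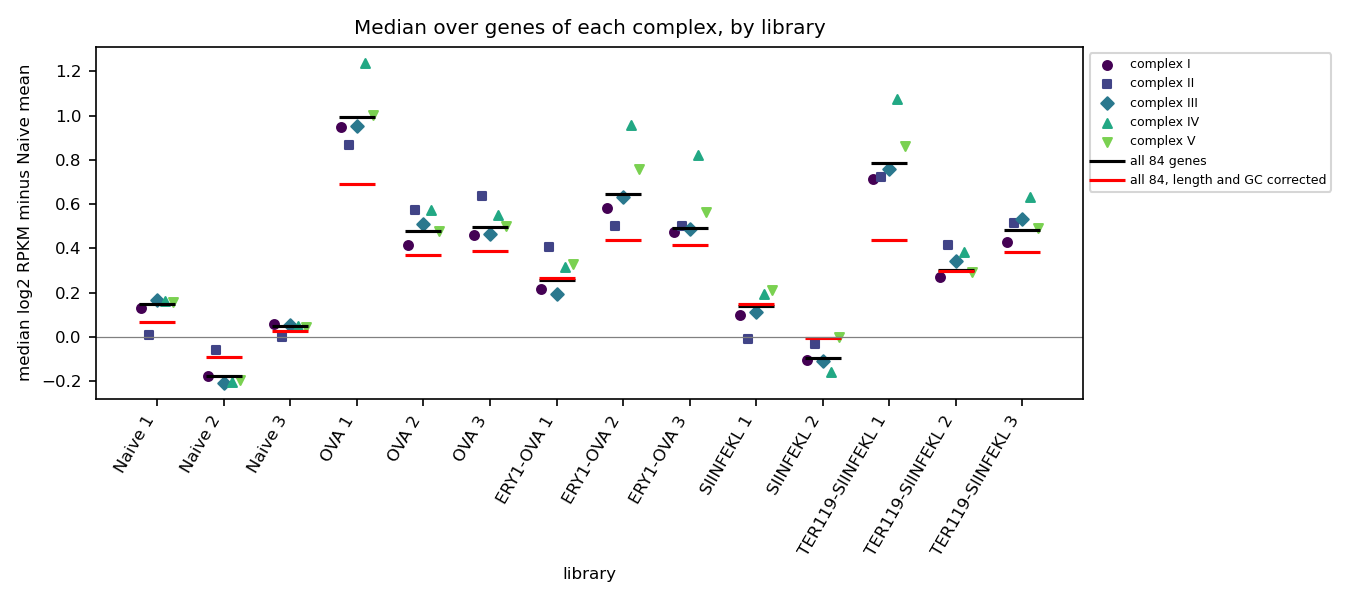
Median log2 RPKM relative to the Naive mean (vertical axis) in each of the 14 libraries (horizontal axis). Coloured symbols are medians of the complexes, black bars the median of all 84 genes and red bars the same after correction for gene length and GC content; the 9 libraries of OVA, ERY1-OVA and TER119-SIINFEKL lie at 0.26 or above by the black bars, and the SIINFEKL and Naive libraries at 0.15 or below.

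Complex I, the NADH dehydrogenase, held 44 of the genes. Of these, 30 were called higher than Naive after OVA (19 to 33 when single libraries were left out), 17 after ERY1-OVA (9 to 22) and 22 after TER119-SIINFEKL (13 to 27). The lowest counts came without OVA replicate 1, Naive replicate 2 and TER119-SIINFEKL replicate 1, in that order. The ERY1-OVA count was also 11 without ERY1-OVA replicate 3 or Naive replicate 3, and the TER119-SIINFEKL count 14 without Naive replicate 2. The core subunits encoded in the nucleus carry the flavin and the iron-sulfur clusters.

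Ndufv1 (ENSMUSG00000037916, chr19:4007384-4012806, - strand) binds the flavin at which NADH is oxidised. Ndufv1 measured 47.1, 45.5 and 51.2 RPKM in the 3 Naive libraries, 72.8, 78 and 78.7 after OVA, 60.5, 56 and 64.1 after ERY1-OVA, 36.9 and 44.4 after SIINFEKL and 66.6, 65.8 and 69.7 after TER119-SIINFEKL. The OVA, ERY1-OVA and TER119-SIINFEKL values were all above the highest Naive value, and the SIINFEKL values were below the lowest. Ndufv1 rose by 0.68 ± 0.10 after OVA (log2 difference ± SE, 3 against 3 libraries, limma adjusted p = 1.1e-04) and by 0.49 ± 0.10 after TER119-SIINFEKL (adjusted p = 0.0011). Its rise of 0.33 ± 0.10 after ERY1-OVA did not hold without ERY1-OVA replicate 3 or Naive replicate 2 and with quantile normalization (log2 0.28 to 0.38 over the libraries left out, limma adjusted p up to 0.12). After SIINFEKL its difference was -0.24 and did not pass (adjusted p = 0.14).

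Ndufs8, a core subunit that holds iron-sulfur clusters, showed the largest rise of the core after OVA. Ndufs8 measured 51.4, 36.2 and 47.7 RPKM in the 3 Naive libraries, 115, 83.1 and 78 after OVA, 68.1, 103 and 96.5 after ERY1-OVA, 72.4 and 49.6 after SIINFEKL and 107, 76.4 and 89 after TER119-SIINFEKL. The libraries of OVA, ERY1-OVA and TER119-SIINFEKL were all above Naive, while SIINFEKL replicate 1 was above and replicate 2 within it. The log2 rises were 1.02 ± 0.21, 0.98 ± 0.21 and 1.01 ± 0.21 in that order (limma adjusted p = 0.0016, 0.0027 and 0.0016). Ndufv2, a partner of Ndufv1, rose by 0.82, 0.78 and 0.79. The calls of both genes against Naive held under every alternative tried.

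Ndufs7, the core subunit next to the ubiquinone site, was called in no comparison with Naive. Ndufs7 measured 48.7, 48.3 and 53 RPKM in the 3 Naive libraries, 70.0, 55 and 54.7 after OVA, 43.4, 48.9 and 47.6 after ERY1-OVA, 40.2 and 43.1 after SIINFEKL and 56.1, 46.1 and 54.1 after TER119-SIINFEKL. Only the OVA values lay above all Naive values. Its log2 difference after OVA was 0.25 (95% interval 0.00 to 0.50, limma adjusted p = 0.086), and after ERY1-OVA -0.10 (-0.35 to 0.15). Ndufs1, the large iron-sulfur subunit, rose by 0.62 after OVA and 0.49 after TER119-SIINFEKL. Ndufs3, another core subunit, rose by 0.39 after OVA, a call lost with quantile normalization. The Ndufs1 call after ERY1-OVA (0.31) was lost when any one of the Naive libraries or ERY1-OVA replicate 1 or 3 was left out (log2 0.24 to 0.42 over the libraries left out, limma adjusted p up to 0.13). 

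Among the 30 other complex I subunits, 19 rose after OVA, 9 after ERY1-OVA and 13 after TER119-SIINFEKL. The largest rise after OVA was in Ndufb8, a membrane arm subunit. Ndufb8 measured 47.2, 32.5 and 35.5 RPKM in the 3 Naive libraries, 119.6, 66.1 and 72.3 after OVA, 58.1, 88.8 and 82.1 after ERY1-OVA, 51.3 and 35.4 after SIINFEKL and 95.4, 60.5 and 67.3 after TER119-SIINFEKL. Its OVA replicate 1 value was far above the other 2, and all 9 values of the 3 groups lay above Naive. Ndufb8 rose by 1.13 ± 0.25, 0.99 ± 0.25 and 0.95 ± 0.25 after OVA, ERY1-OVA and TER119-SIINFEKL (limma adjusted p = 0.0025, 0.0072 and 0.0073). At the other end, Ndufa6 measured 139.8, 117 and 153 RPKM in Naive and 155, 124 and 106 after OVA, which overlap (log2 -0.10, interval -0.53 to 0.33).

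Ndufab1, the mitochondrial acyl carrier protein and also a complex I subunit, went both ways. Ndufab1 measured 13.8, 12.1 and 12.9 RPKM in the 3 Naive libraries, 28.8, 19.5 and 21.3 after OVA, 13.7, 16 and 15.7 after ERY1-OVA, 8.81 and 7.95 after SIINFEKL and 20.0, 14.2 and 16.7 after TER119-SIINFEKL. The OVA values were above and the SIINFEKL values below all Naive values, and the ERY1-OVA values overlapped Naive. It rose by 0.82 ± 0.15 after OVA (limma adjusted p = 7.9e-04) and fell after SIINFEKL (-0.63 ± 0.17, adjusted p = 0.026). The call after SIINFEKL did not hold without Naive replicate 1 or 3 or either SIINFEKL library (log2 -0.70 to -0.55 over the libraries left out, adjusted p up to 0.11).

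The 7 assembly factors, which help to build complex I and are not part of it, were measured at low levels. After OVA 5 rose, after ERY1-OVA 3 rose and 1 fell, and after TER119-SIINFEKL 4 rose. The first count was 3 without OVA replicate 1, the second 1 without Naive replicate 3 and the last 2 without TER119-SIINFEKL replicate 1. Ndufaf7 is a methyltransferase. Ndufaf7 measured 4.73, 5.34 and 5.52 RPKM in the 3 Naive libraries, 11, 8.48 and 10.0 after OVA, 9.36, 11.3 and 9.20 after ERY1-OVA, 7.89 and 5.95 after SIINFEKL and 10.9, 10.4 and 10.5 after TER119-SIINFEKL. It rose by 0.92 ± 0.14, 0.93 ± 0.14 and 1.03 ± 0.14 in the 3 groups (limma adjusted p = 1.7e-04, 1.8e-04 and 5.6e-05), with no overlap with Naive. Ndufaf6 rose by 1.21 ± 0.22 after OVA, the largest rise of the complex I genes there, from 3.24, 2.55 and 3.11 RPKM to 9.05, 6.61 and 5.33.

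Ndufaf4, another assembly factor, did not follow them. Ndufaf4 measured 8.01, 5.56 and 6.89 RPKM in the 3 Naive libraries, 7.41, 5.53 and 5.94 after OVA, 4.14, 5.11 and 5.20 after ERY1-OVA, 3.54 and 4.23 after SIINFEKL and 7.63, 5.32 and 6.17 after TER119-SIINFEKL. The OVA and TER119-SIINFEKL values overlapped Naive, and the ERY1-OVA and SIINFEKL values were below it. It fell after SIINFEKL (-0.80 ± 0.20, limma adjusted p = 0.019) and after ERY1-OVA (-0.49 ± 0.18, adjusted p = 0.043). The SIINFEKL call did not hold without Naive replicate 1 or 3 or SIINFEKL replicate 1 (log2 -0.94 to -0.67 over the libraries left out). The ERY1-OVA call was lost without any one of its own 3 libraries, Naive replicate 1 or 3, OVA replicate 3 or TER119-SIINFEKL replicate 3 (log2 -0.63 to -0.37).

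**Figure D3:**
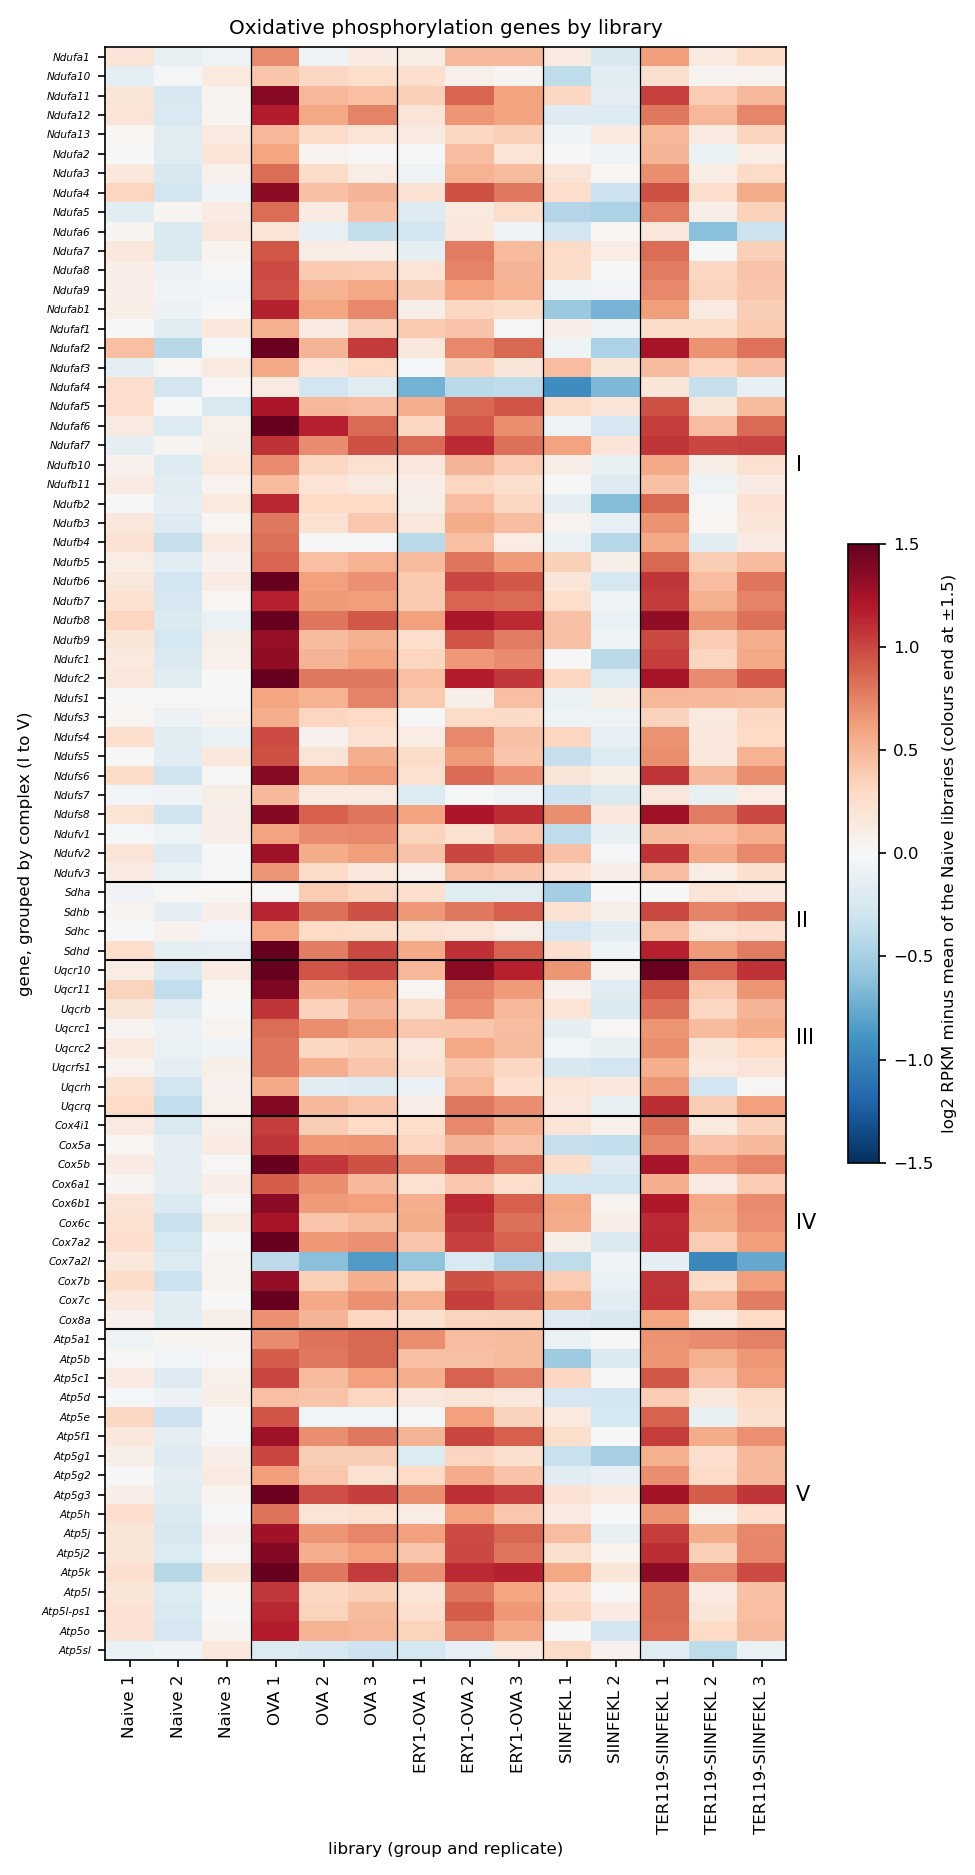
Log2 RPKM of the genes (rows, grouped by complex, with 1 gene not shown) relative to its Naive mean in each of the 14 libraries (columns), with red above and blue below and colours ending at 1.5 in either direction. Most rows are red after OVA, ERY1-OVA and TER119-SIINFEKL and pale after SIINFEKL, and the rows of Cox7a2l and Ndufaf4 are mostly blue.

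Complex II, succinate dehydrogenase, has 4 subunits, all encoded in the nucleus, and also works in the tricarboxylic acid cycle. It showed an uneven response: Sdhb and Sdhd rose in all of OVA, ERY1-OVA and TER119-SIINFEKL, Sdhc in OVA and TER119-SIINFEKL, and Sdha in none. Sdhb (ENSMUSG00000009863, chr4:140961203-140979193, + strand) carries the iron-sulfur clusters. Sdhb measured 66.7, 58.9 and 69.8 RPKM in the 3 Naive libraries, 143, 115 and 126 after OVA, 102, 113 and 120.5 after ERY1-OVA, 76.3 and 69 after SIINFEKL and 129, 109 and 114 after TER119-SIINFEKL. Every value of these 3 groups exceeded the highest Naive value, whereas the SIINFEKL values lay close to it. The rises were 0.98 ± 0.11, 0.78 ± 0.11 and 0.85 ± 0.11 in log2 (limma adjusted p = 1.8e-05, 1.6e-04 and 5.5e-05).

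Sdhd and Sdhc anchor the enzyme in the membrane. Sdhd measured 64.9, 48.6 and 49.5 RPKM in the 3 Naive libraries, 166, 91.8 and 107 after OVA, 79.9, 115 and 99.4 after ERY1-OVA, 64.2 and 51.6 after SIINFEKL and 121, 83.6 and 92.7 after TER119-SIINFEKL. Sdhd rose by 1.13 ± 0.22, 0.85 ± 0.22 and 0.86 ± 0.22 in the same 3 groups, with no overlap with Naive. Sdhc measured 30.2, 32 and 29.9 RPKM in the 3 Naive libraries, 46.3, 37.9 and 37.1 after OVA, 36, 35.5 and 33.2 after ERY1-OVA, 25.8 and 27.2 after SIINFEKL and 42.2, 35.3 and 36.4 after TER119-SIINFEKL. Sdhc rose by 0.39 ± 0.11 after OVA (limma adjusted p = 0.0085). Its rise of 0.30 ± 0.11 after TER119-SIINFEKL did not hold without Naive replicate 1 or 3 or TER119-SIINFEKL replicate 1 or 3, and with the length and GC correction or quantile normalization (log2 0.22 to 0.35 over the libraries left out, adjusted p up to 0.16).

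Sdha (ENSMUSG00000021577, chr13:74322254-74350280, - strand), the subunit that binds the flavin and oxidises succinate, did not pass against Naive. Sdha measured 99.7, 105 and 106 RPKM in the 3 Naive libraries, 105, 134 and 129 after OVA, 123, 91.2 and 91.5 after ERY1-OVA, 72.6 and 103 after SIINFEKL and 104, 119 and 116 after TER119-SIINFEKL. The range of every antigen group overlapped the narrow Naive range. The log2 differences were 0.24 (95% interval -0.09 to 0.56) after OVA, -0.04 (-0.36 to 0.28) after ERY1-OVA, 0.12 (-0.20 to 0.44) after TER119-SIINFEKL and -0.26 (-0.62 to 0.10) after SIINFEKL. The upper bounds after OVA, ERY1-OVA and TER119-SIINFEKL were each below the rise measured for Sdhb in the same group. The difference between the 2 genes itself was not tested.

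Complex III, the cytochrome bc1 complex, had 7 of its 8 genes called higher after OVA, 2 after ERY1-OVA and 5 after TER119-SIINFEKL. When single libraries were left out the counts were 3 to 7, 2 to 5 and 2 to 7. The lowest was reached without OVA replicate 1 or Naive replicate 2 for OVA, and without TER119-SIINFEKL replicate 1 or 3 or Naive replicate 2 or 3 for TER119-SIINFEKL, which was 3 without ERY1-OVA replicate 3. After ERY1-OVA the count was 5 without OVA replicate 1 or ERY1-OVA replicate 1 and 4 without TER119-SIINFEKL replicate 1. The small subunit Uqcr10 (ENSMUSG00000059534, chr11:4701973-4704342, - strand) had the largest called rise of all 84 genes in each of the 3 groups. Uqcr10 measured 93.6, 73.2 and 93.9 RPKM in the 3 Naive libraries, 306, 167 and 174 after OVA, 122, 220.3 and 193 after ERY1-OVA, 136 and 88.9 after SIINFEKL and 241, 159 and 183 after TER119-SIINFEKL. OVA replicate 1 was far above the other OVA libraries, and no value of the 3 groups reached down to Naive. The rises were 1.26 ± 0.27, 1.00 ± 0.27 and 1.15 ± 0.27 (limma adjusted p = 0.0019, 0.0096 and 0.0034).

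Uqcrh, the hinge subunit that helps cytochrome c to dock, is the most abundant gene of complex III and was called in no comparison. Uqcrh measured 509.8, 357 and 454 RPKM in the 3 Naive libraries, 648, 388 and 380.5 after OVA, 409, 615 and 519 after ERY1-OVA, 500.4 and 485 after SIINFEKL and 689, 356 and 441 after TER119-SIINFEKL. Each antigen group overlapped Naive, and replicate 1 of OVA and of TER119-SIINFEKL was the highest of its group. The log2 difference after OVA was 0.07 (95% interval -0.48 to 0.62).

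Complex IV, cytochrome c oxidase, had 10 of its 11 genes called higher after OVA, 6 after ERY1-OVA and 7 after TER119-SIINFEKL, with ranges of 7 to 10, 2 to 9 and 3 to 9 when single libraries were left out. The 6 became 2 without ERY1-OVA replicate 2 or Naive replicate 2, and it became 3 without ERY1-OVA replicate 3. The 7 became 3 without Naive replicate 2 or TER119-SIINFEKL replicate 1. Cox5b (ENSMUSG00000061518, chr1:36691449-36693681, + strand), a subunit on the matrix side, rose most. Cox5b measured 141, 118 and 132 RPKM in the 3 Naive libraries, 405, 271 and 252 after OVA, 213, 264 and 232 after ERY1-OVA, 157 and 114 after SIINFEKL and 307, 204 and 216 after TER119-SIINFEKL. All values of OVA, ERY1-OVA and TER119-SIINFEKL were above Naive, and the 2 SIINFEKL values fell on either side of it. The rises were 1.22 ± 0.20, 0.86 ± 0.20 and 0.88 ± 0.20 (limma adjusted p = 2.7e-04, 0.004 and 0.0027). Cox6b1 rose by 0.87, 0.85 and 0.83.

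Cox4i1, the regulatory subunit 4, and Ndufa4 passed after OVA and in no other comparison with Naive. Their log2 differences after OVA were 0.57 ± 0.21 and 0.76 ± 0.27 (limma adjusted p = 0.041 and 0.034), beside 0.51 and 0.66 after ERY1-OVA and 0.44 and 0.59 after TER119-SIINFEKL. ERY1-OVA against OVA did not pass in either gene. The Cox4i1 call was lost without OVA replicate 1, any one of the Naive libraries, ERY1-OVA replicate 3 or TER119-SIINFEKL replicate 3 (log2 0.33 to 0.70 over the libraries left out). The Ndufa4 call was lost without OVA replicate 1 or Naive replicate 2 or 3 (0.47 to 0.93). The rule would have taken the tissue isoforms Cox4i2, Cox6a2, Cox6b2, Cox7a1, Cox7b2, Cox8b, Cox8c and Ndufa4l2, but none was among the genes in the deposited values.

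Cox7a2l (ENSMUSG00000024248, chr17:83501918-83517330, - strand) fell. It is a relative of the subunit Cox7a2 and is described as a factor for supercomplexes of complexes III and IV. Supercomplexes were not measured here, and whether the gene acts so in these cells was not tested. Cox7a2l measured 574, 445 and 529 RPKM in the 3 Naive libraries, 391, 333 and 285 after OVA, 337, 439 and 374 after ERY1-OVA, 394 and 493 after SIINFEKL and 463, 262 and 301 after TER119-SIINFEKL. The OVA and ERY1-OVA values were all below Naive, and 1 TER119-SIINFEKL value lay inside the Naive range. The log2 difference was -0.62 ± 0.20 after OVA (limma adjusted p = 0.021) and -0.63 ± 0.20 after TER119-SIINFEKL (adjusted p = 0.019), while -0.43 after ERY1-OVA did not pass (adjusted p = 0.1). The OVA call did not hold without Naive replicate 1 or 3 or OVA replicate 3 (log2 -0.74 to -0.51 over the libraries left out). The TER119-SIINFEKL call did not hold without Naive replicate 1 or 3 or its own replicate 2 or 3 (-0.87 to -0.46). The subunit Cox7a2 itself moved the other way, with 0.94 ± 0.25 after OVA (adjusted p = 0.007).

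Complex V, the ATP synthase, had 13 of its 17 genes called higher after OVA, 11 after ERY1-OVA and 11 after TER119-SIINFEKL, with ranges of 10 to 14, 7 to 12 and 8 to 13 when single libraries were left out. The 11 after ERY1-OVA became 7 without ERY1-OVA replicate 2 or 3 or Naive replicate 2. The head and central stalk make ATP, and 4 of their 5 genes rose after OVA. Atp5b (ENSMUSG00000025393, chr10:128083273-128090391, + strand) is the catalytic beta subunit. Atp5b measured 417, 400.1 and 417 RPKM in the 3 Naive libraries, 771, 712 and 744 after OVA, 557, 559 and 572 after ERY1-OVA, 284 and 353 after SIINFEKL and 649, 594 and 644 after TER119-SIINFEKL. Replicates of this gene lay close together except after SIINFEKL (284 and 353). The OVA values were highest, TER119-SIINFEKL and ERY1-OVA came next, and both SIINFEKL values were below Naive.

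Atp5b rose by 0.85 ± 0.11 after OVA, 0.45 ± 0.11 after ERY1-OVA and 0.61 ± 0.11 after TER119-SIINFEKL (limma adjusted p = 3.1e-05, 0.0044 and 4.1e-04). After SIINFEKL it fell (-0.38 ± 0.12, adjusted p = 0.047), a call that was lost when any one of the Naive or ERY1-OVA libraries was left out, or SIINFEKL replicate 1, OVA replicate 2 or 3 or TER119-SIINFEKL replicate 2 or 3, and with quantile normalization or the replicate number as a block (log2 -0.53 to -0.22 over the libraries left out, adjusted p up to 0.5). The alpha subunit Atp5a1 rose by 0.80, 0.55 and 0.71 in the first 3 groups. Atp5e, the small epsilon subunit of the stalk, was called in none (402, 262 and 326 RPKM in Naive and 624, 317 and 317 after OVA). Atp5k, subunit e, which helps the enzyme to pair in the membrane, rose by 1.18 ± 0.25, 0.99 ± 0.25 and 1.02 ± 0.25.

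**Figure D4:**
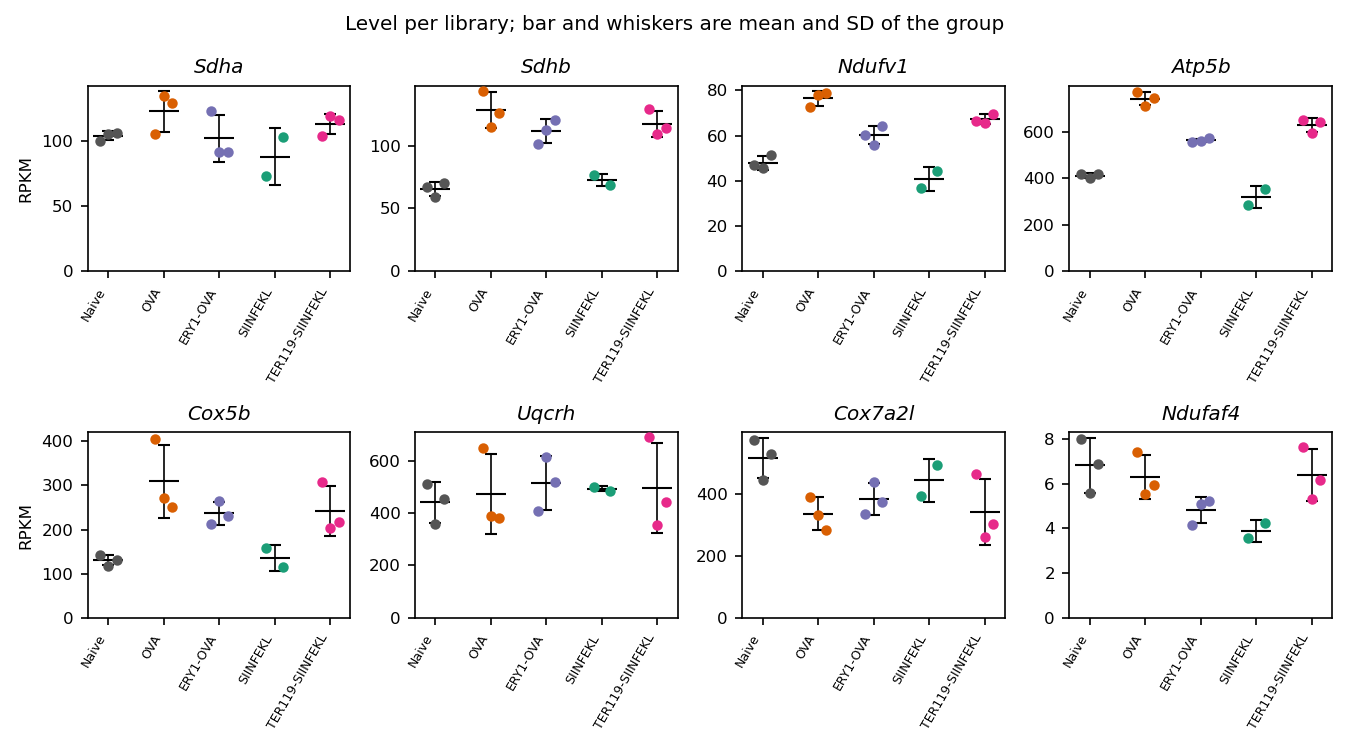
RPKM (vertical axes, from 0) in each library for 8 of the genes, by group (horizontal axes), with the group mean and SD as bar and whiskers. Sdhb, Atp5b and Cox5b lie above Naive in every OVA, ERY1-OVA and TER119-SIINFEKL library, Sdha and Uqcrh overlap Naive, and Cox7a2l is below Naive in every OVA and ERY1-OVA library.

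Atp5g1, Atp5g2 and Atp5g3 encode subunit c, which forms the rotating ring of the ATP synthase. The genes are known to give the same mature protein from different precursors, so their reads can be shared, and how the authors' counting treated shared reads is not given in the sources used here. Their summed level was 507.6 ± 46.7 RPKM in Naive (SD, n = 3), 870.3 ± 150.2 after OVA (n = 3), 791.6 ± 92.3 after ERY1-OVA (n = 3), 500.2 ± 5.08 after SIINFEKL (n = 2) and 855.9 ± 108.2 after TER119-SIINFEKL (n = 3). The sums of the 3 higher groups lay between 689.8 and 1043 RPKM, above the Naive maximum of 543.6.

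The mix of the genes differed as well. Atp5g3 measured 217, 181 and 209 RPKM in the 3 Naive libraries, 559.9, 394 and 414 after OVA, 327, 430.0 and 411 after ERY1-OVA, 233 and 223 after SIINFEKL and 477, 380.0 and 424 after TER119-SIINFEKL. Atp5g2 measured 276, 248 and 302 RPKM in the 3 Naive libraries, 423, 362 and 320.0 after OVA, 336, 402 and 368 after ERY1-OVA, 246 and 253 after SIINFEKL and 446, 335 and 383 after TER119-SIINFEKL. Atp5g2 exceeded Atp5g3 in every Naive and SIINFEKL library, and Atp5g3 exceeded Atp5g2 in every OVA library. Atp5g3 rose by 1.16 ± 0.15, 0.94 ± 0.15 and 1.08 ± 0.15 after OVA, ERY1-OVA and TER119-SIINFEKL (limma adjusted p = 5.1e-05, 3.4e-04 and 8.2e-05). Atp5g2 rose by 0.42, 0.43 and 0.49. Its call after OVA was lost without OVA replicate 1 or Naive replicate 1 or 2 (log2 0.31 to 0.51 over the libraries left out), and that after ERY1-OVA without ERY1-OVA replicate 2 or 3 or Naive replicate 1 or 2 (0.35 to 0.49). Over all alternatives the rise of Atp5g2 after ERY1-OVA ran from 0.30 to 0.65. Atp5g1 rose after OVA (0.58 ± 0.18), a call lost without OVA replicate 1 or Naive replicate 2 (0.37 to 0.69).

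Atp5g3 made up 39.9% ± 1.40 of the sum in Naive (SD, n = 3), 52.3% ± 2.30 after OVA, 49.1% ± 1.52 after ERY1-OVA and 50.0% ± 0.627 after TER119-SIINFEKL (n = 3 each), and 45.6% ± 1.05 after SIINFEKL (n = 2). The Naive shares (38.5 to 41.3%) did not overlap any other group, and the SIINFEKL shares (44.9 to 46.3%) lay between Naive and all others. In an exact two-sided permutation test each group of 3 against Naive gave p = 0.1, the smallest that 3 against 3 libraries allow, and SIINFEKL gave p = 0.2, the smallest for 2 against 3. The share of Atp5g2 was 54.2% in Naive and 42.5 to 49.9% in the means of the other groups. All these shares come from the values as deposited and were not recomputed with the length and GC correction.

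**Figure D5:**
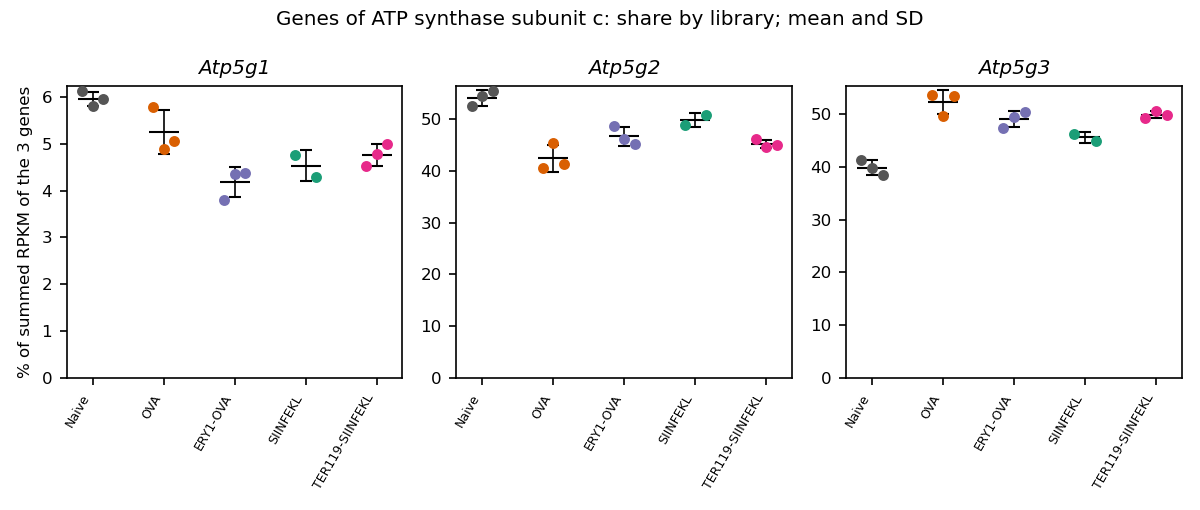
Share of Atp5g1, Atp5g2 and Atp5g3 in their summed RPKM (vertical axes, percent, from 0, on a separate scale for each gene) in each library, by group (horizontal axes), with the group mean and SD. The share of Atp5g3 is lowest in Naive, at 38.5 to 41.3%, and highest after OVA, at 49.6 to 53.7%.

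Atp5sl, named like the synthase but not one of its subunits, measured 14.6, 15.1 and 17.6 RPKM in Naive, 13.6, 13.3 and 12.6 after OVA, 13.1, 14.4 and 17.4 after ERY1-OVA, 19.1 and 16.4 after SIINFEKL and 13.8, 12.1 and 14.6 after TER119-SIINFEKL. It was called in no comparison with Naive. The pseudogene Atp5l-ps1 was at 169, 123 and 145 RPKM in Naive and 317, 182 and 201 after OVA, beside 233, 177 and 209 and 427, 255 and 262 for its parent Atp5l, and reads of the pair may not be separable.

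The soluble and erythrocyte-bound forms of antigen were then compared. ERY1-OVA against OVA gave no called gene among the 84 (limma; all genes 0.408% higher and 0.654% lower), and 13 had an unadjusted p under 0.05. The median difference was -0.14. The smallest adjusted p was that of Ndufab1, 0.074, with a log2 difference of -0.60 (95% interval -0.93 to -0.27). Atp5b was next (-0.40, interval -0.63 to -0.17), and its 3 ERY1-OVA values were all below its 3 OVA values.

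TER119-SIINFEKL against free SIINFEKL gave 40 genes higher and 1 lower (median 0.55; all genes 20.4% and 17%). The 40 became 23 without SIINFEKL replicate 2 and 25 without TER119-SIINFEKL replicate 1. By complex, 20 of 44 were higher in I (10 and 11 without those libraries), 3 of 4 in II, 5 of 11 in IV (2 without SIINFEKL replicate 2) and 10 of 17 in V (6 without either). In complex III 2 of 8 were higher, which became 7 without OVA replicate 1, 6 without TER119-SIINFEKL replicate 2, 5 without ERY1-OVA replicate 1 and 4 without SIINFEKL replicate 1. The largest differences were in Ndufaf2 (1.18 ± 0.30, limma adjusted p = 0.0087), Ndufab1 (1.01 ± 0.17, 6.1e-04) and Atp5b (0.99 ± 0.12, 5.6e-05). Ndufaf2, an assembly factor of complex I, measured 7.32 and 5.50 RPKM after SIINFEKL and 18, 12.2 and 13.5 after TER119-SIINFEKL, and its call was lost without SIINFEKL replicate 2 (0.97 to 1.38 over the libraries left out). The gene called lower was Atp5sl (-0.40 ± 0.14), which was lost without SIINFEKL replicate 1, OVA replicate 2 or 3, Naive replicate 2, ERY1-OVA replicate 2 or TER119-SIINFEKL replicate 1 or 2 (-0.50 to -0.29).

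OVA against SIINFEKL gave 50 higher and 1 lower (median 0.63; all genes 22.4% and 19.9%), and the 50 became 29 without SIINFEKL replicate 2. The largest differences were in Ndufab1 (1.45 ± 0.17), Ndufaf6 (1.38 ± 0.24) and Ndufaf2 (1.27 ± 0.30), with limma adjusted p of 3.1e-05, 6.1e-04 and 0.0047. All 4 complex II genes were higher, Sdha among them (0.50 ± 0.17, adjusted p = 0.03). The Sdha call was lost without OVA replicate 2 or 3 or SIINFEKL replicate 1 and with quantile normalization (0.24 to 0.75 over the libraries left out). ERY1-OVA against TER119-SIINFEKL gave no called gene among the 84 (limma; all genes 0.0715% higher and 0.49% lower), 1 with an unadjusted p under 0.05, and a median of -0.03.

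A further term set the difference between bound and soluble antigen against itself for protein and peptide. It was the ERY1-OVA minus OVA difference less the TER119-SIINFEKL minus SIINFEKL difference. The carrier also changed, from ERY1 for the protein to the TER119 fragment for the peptide. Carrier and form of antigen therefore cannot be told apart in this term. Of the 84 genes, 38 were called lower and 1 higher in this term (median -0.69; all genes 20.6% lower and 17.1% higher). Quantile normalization gave a median of -0.43 and the length and GC correction one of -0.45. Without OVA replicate 1 and TER119-SIINFEKL replicate 1 together it was -0.41, with 25 called lower. By complex, 19 of 44 were lower in I, 4 of 4 in II, 3 of 8 in III, 4 of 11 in IV and 8 of 17 in V. The complex III count was 5 without OVA replicate 2, SIINFEKL replicate 1 or TER119-SIINFEKL replicate 2. That of complex V was 5 without OVA replicate 1, ERY1-OVA replicate 1 or 3, SIINFEKL replicate 2 or TER119-SIINFEKL replicate 1 or 3. For Atp5b the term was -1.39 ± 0.16 (limma adjusted p = 4.7e-05), made of -0.40 for the protein and 0.99 for the peptide. The term rests on all 4 antigen groups, including the 2 SIINFEKL libraries.

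Other genes of the same machinery were counted from lists. One list held 10 subunits encoded by mitochondrial DNA, with symbols beginning mt-Nd, mt-Co or mt-Atp. It does not hold every such subunit, and none is of complex III. These 10 did not rise with the nuclear ones: none was called higher against Naive in any group. Of them mt-Nd2, a complex I subunit, was lower in all 4. It measured 3247, 2483 and 2739 RPKM in Naive, 2334, 1517 and 1631 after OVA, 1519, 1982 and 1992 after ERY1-OVA, 1378 and 1615 after SIINFEKL and 2314, 1309 and 1399 after TER119-SIINFEKL. All antigen libraries were below the lowest Naive value. Its log2 differences were -0.64, -0.63, -0.91 and -0.79 in that order (limma adjusted p = 0.033, 0.044, 0.03 and 0.012). The calls did not hold without Naive replicate 1 in every group. They were also lost without Naive replicate 3 (OVA, ERY1-OVA and SIINFEKL), Naive replicate 2 (ERY1-OVA), OVA replicate 2 or 3 (OVA), any ERY1-OVA library or OVA replicate 3 or TER119-SIINFEKL replicate 3 (ERY1-OVA), SIINFEKL replicate 1 (SIINFEKL) and TER119-SIINFEKL replicate 2 or 3 (TER119-SIINFEKL). Over the libraries left out, the difference after OVA ran from -0.83 to -0.52. Conversely, 5 of the 10 were lower after TER119-SIINFEKL without its replicate 1, and 3 after OVA without OVA replicate 1.

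The median over the 10 was -0.45 after OVA, -0.17 after ERY1-OVA, -0.35 after SIINFEKL and -0.31 after TER119-SIINFEKL. In the main fit 1 of the 10 was lower in each group, against 23.1%, 19%, 8.34% and 23% of all genes in that order. With the length and GC correction 10, 9, 4 and 8 of them were called lower in that order and none higher. The shares of all genes under that correction, or without single libraries, are not given here. Those counts are therefore not set against a background here. The libraries were selected for poly(A), which mitochondrial transcripts carry in short form, so levels of these genes also depend on that selection. Whether nuclear and mitochondrial genes differed was not tested.

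Of 5 subunits and carriers with other names, 4 were higher after OVA, 2 after ERY1-OVA, 3 after TER119-SIINFEKL and none after SIINFEKL. Of all genes, 24.4%, 20.9%, 24.6% and 7.58% were called higher in that order. Atpif1, the inhibitor of ATP synthase, rose by 1.57 ± 0.29, 1.55 ± 0.29 and 1.40 ± 0.29 after OVA, ERY1-OVA and TER119-SIINFEKL. Cyc1, the cytochrome c1 subunit of complex III, rose by 0.79, 0.30 and 0.48 in that order, and Cycs, cytochrome c, by 0.78 after OVA and 0.63 after TER119-SIINFEKL. The ERY1-OVA call of Cyc1 did not hold without ERY1-OVA replicate 2 or 3 or Naive replicate 2 or 3 (0.25 to 0.38 over the libraries left out), which left 1 of the 5.

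Of 35 other assembly factors, 11, 7 and 8 were higher after OVA, ERY1-OVA and TER119-SIINFEKL, and 3 were lower after ERY1-OVA (all genes 19% lower). These shares (31.4%, 20% and 22.9%) were near those of all genes called higher (24.4%, 20.9% and 24.6%). After SIINFEKL 2 were higher and 3 lower, beside 7.58% and 8.34% of all genes. The 2 became 0 or 1 without any one library other than TER119-SIINFEKL replicate 1. The 3 became 6 without that library, 1 without Naive replicate 2 or TER119-SIINFEKL replicate 3 and 0 without SIINFEKL replicate 1. The 11 became 7 without Naive replicate 3 or OVA replicate 1, and the 8 became 5 without TER119-SIINFEKL replicate 1 or 3. Of 14 genes of the tricarboxylic acid cycle, which feeds the chain, 11, 8 and 9 were higher in the same order (78.6%, 57.1% and 64.3%). After ERY1-OVA 2 were lower (1 without ERY1-OVA replicate 2 or Naive replicate 3), after TER119-SIINFEKL 1, and 4 were lower after SIINFEKL (2 without Naive replicate 1, 1 without Naive replicate 3 and 0 without SIINFEKL replicate 1). Fumarase Fh1 rose by 1.21, 0.96 and 1.13, while Idh2 fell after ERY1-OVA (-0.80), TER119-SIINFEKL (-0.90) and SIINFEKL (-1.02, lost at -0.47 without SIINFEKL replicate 1). Of 16 genes of mitochondrial import and transport, 13, 6 and 12 were higher (81.2%, 37.5% and 75%), and Hspd1 (-0.86) and Tomm40 (-0.39) were lower after SIINFEKL. Both of these calls were lost without SIINFEKL replicate 1, and that of Tomm40 also without any one of the Naive libraries or OVA replicate 3 and with the replicate number as a block. Among the 16, the ADP/ATP exchanger Slc25a5 rose by 1.09, 0.94 and 1.06.

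Of 12 regulators of mitochondrial gene expression, 4, 3 and 3 were higher and 3, 3 and 2 lower after OVA, ERY1-OVA and TER119-SIINFEKL. The shares higher (33.3%, 25% and 25%) stand beside 24.4%, 20.9% and 24.6% of all genes, and of all genes 23.1%, 19% and 23% were lower, so the counts of this list were near the background. After SIINFEKL none was higher and 2 were lower (0 without SIINFEKL replicate 1). Nrf1, whose motif is marked above, rose by 0.36, 0.34 and 0.31, and no link between motif and rise was tested. Its calls after ERY1-OVA and TER119-SIINFEKL were lost without Naive replicate 1 or 2. They were also lost without ERY1-OVA replicate 3 for the first and TER119-SIINFEKL replicate 2 or 3 for the second. Quantile normalization lost its calls in all 3 (0.25 to 0.44 over the libraries left out). Gabpb1 (0.35, 0.41 and 0.48) and Tfam (0.47, 0.43 and 0.46) were also higher in the same order, and Ppargc1b was lower (-0.69, -1.11 and -0.96). The OVA call of each was lost without OVA replicate 1 or Naive replicate 3, and every Tfam call without Naive replicate 3. The coactivator Pprc1 fell in all 4 groups (-0.76, -1.13 and -0.73, and -0.94 after SIINFEKL, which was lost at -0.66 without SIINFEKL replicate 1). The regulators called higher became 1 without OVA replicate 1 and 2 without Naive replicate 3 for OVA, and 1 without Naive replicate 2 for ERY1-OVA.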

How the data were processed

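The 14 libraries were made with a stranded mRNA kit, per the labels' protocols. The authors deposited log2 RPKM values, which were used as deposited in place of the planned log2(RPKM + 1), because they were already logarithms. Of these values 4.3% were negative, and base 2 was read from the library sums. Tools listed in the submitters' processing notes are edgeR, STAR 2.4.2 and bcl2fastq 2.17.1.14, with no roles stated; the counter, annotation, filter and prior count are not given in the sources used here. Depth per library is unknown, so no counting interval is given.

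Genes with a mean of at least 1 RPKM were kept (9793; 313 removed). The test was limma 3.58.1 (R 4.3.3), two-sided, with a mean for each of the 5 groups and a prior variance that follows expression. Residual degrees of freedom were 9 and prior ones 4.6. A Benjamini-Hochberg adjusted p under 0.05 over all genes of a comparison was called. Intervals are 95%. There were 9 comparisons. The procedure was tested on simulated data. Members and lists were chosen with earlier results of these data known.

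The genes named with values were all of complex II, the most abundant 2 of each complex, the 3 largest called rises and falls of each comparison without overlap, paralogue sets, complex I core subunits (1 is not reported here), genes that are not subunits, and those called lower than Naive; Ndufa6, Atp5e, Atp5l, Atp5l-ps1 and the named genes of other pathways were added after their values were seen. Positions and exon lengths come from GENCODE (GRCm38), and promoters from RefSeq (GRCm38.p6; 15 of the 84 had none). Alternatives were pseudocounts of 0.1 and 1, no filter, a filter at 3 RPKM, quantile and median-of-ratios scaling, a length and GC correction, a replicate block, no trend, leaving out each library, dropping replicate 1 of both OVA and TER119-SIINFEKL, and leaving out the SIINFEKL group. Figures were drawn with Python 3.11.15 and matplotlib 3.10.9.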

Additional observations from a re-analysis of the deposited data

Results flagged for a closer look

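The difference between bound and soluble antigen was not the same for protein and peptide in the term tested by limma (ERY1-OVA minus OVA, less TER119-SIINFEKL minus SIINFEKL). The carrier, ERY1 or the TER119 fragment, changed with the form of antigen, so the 2 cannot be told apart. In this term 38 of the 84 genes were called lower and 1 higher, with a median of -0.69. Quantile normalization gave a median of -0.43 and the length and GC correction one of -0.45, and it was -0.41, with 25 called lower, without OVA replicate 1 and TER119-SIINFEKL replicate 1 together. The 3 lowest values were those of Ndufab1 (log2 -1.61), Ndufaf2 (-1.60) and Ndufaf6 (-1.51), and the gene called higher was Atp5sl (0.57). The Ndufab1 value was made of -0.60 for the protein and 1.01 for the peptide. The Atp5sl call was lost without OVA replicate 3, ERY1-OVA replicate 3, SIINFEKL replicate 1 or TER119-SIINFEKL replicate 2. The term includes the SIINFEKL group of 2 libraries.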

How the results depend on the processing

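Of 153 calls of the named genes, 97 were kept under every alternative, 56 were lost under at least 1 and none changed sign. The pseudocounts, filters and median-of-ratios scaling lost none of them. With the length and GC correction, 2 of the 84 genes were called lower than Naive in each of OVA, ERY1-OVA and TER119-SIINFEKL, and 7 higher after SIINFEKL. Under it 2 were lower in ERY1-OVA against OVA, 2 in TER119-SIINFEKL against SIINFEKL and 3 in OVA against SIINFEKL. The protein minus peptide term then had 3 higher and a median of -0.45. With quantile normalization 2 were lower in ERY1-OVA and in TER119-SIINFEKL against Naive, and 2 in each of TER119-SIINFEKL and OVA against SIINFEKL, and the term had 2 higher and a median of -0.43. Without OVA replicate 1 and TER119-SIINFEKL replicate 1 together, 2 were lower in ERY1-OVA and in TER119-SIINFEKL against Naive and 2 in OVA against SIINFEKL, and the term had 2 higher, 25 lower and a median of -0.41. Without the SIINFEKL group, 1 was lower in ERY1-OVA against OVA. The cause was not tested, and the shares of all genes called under these alternatives are not given here.

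When single libraries were left out, the counts called higher against Naive ran from 42 to 67 (OVA), 22 to 49 (ERY1-OVA), 28 to 59 (TER119-SIINFEKL) and 0 to 1 (SIINFEKL), and those called lower from 0 to 1, 0 to 2, 0 to 1 and 0 to 3. Against SIINFEKL, 23 to 52 were higher and 0 to 1 lower for TER119-SIINFEKL, and 29 to 57 higher and 0 to 1 lower for OVA. In ERY1-OVA against OVA 0 to 1 were lower. The protein minus peptide term had 0 to 2 higher and 27 to 43 lower. The medians ran from 0.47 to 0.74 (OVA against Naive), 0.37 to 0.57 (ERY1-OVA), 0.38 to 0.61 (TER119-SIINFEKL) and -0.10 to 0.14 (SIINFEKL). They ran from -0.24 to 0.07 in ERY1-OVA against OVA, -0.14 to 0.12 in ERY1-OVA against TER119-SIINFEKL, 0.43 to 0.67 in TER119-SIINFEKL against SIINFEKL, 0.45 to 0.75 in OVA against SIINFEKL and -0.80 to -0.52 in the term. A lone SIINFEKL library has no spread of its own, so that of the other groups was assumed for it.

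Correlations of deviations between same-numbered libraries of different groups ran from -0.44 to 0.67 (median 0.127). For libraries with different numbers they ran from -0.54 to 0.57 (median -0.086). The highest was that of OVA replicate 1 with TER119-SIINFEKL replicate 1. Whether libraries of the same number share a batch cannot be told from these values. A fit with the replicate block called 63 genes higher after OVA, 43 after ERY1-OVA and 49 after TER119-SIINFEKL, 54 in OVA against SIINFEKL, and 41 lower in the protein minus peptide term. It kept 148 of the named calls and lost 5, among them the fall of Atp5b after SIINFEKL. The shares of all genes called in that fit are not given here.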
